A study of Rattus norvegicus with 6 samples.

Results

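Collagen genes and the genes of the enzymes and helpers that modify, fold, trim and cross-link collagen chains were compared between Suz12-depleted and control rat intestinal epithelial cells. The genes were chosen by name: every probe set annotated to exactly 1 symbol made of Col, a number, the letter a and a number, or to exactly 1 of a set of modifying enzyme symbols. This gave 81 probe sets of 56 genes, out of 31042 probe sets and 14217 genes measured. Of these, 41 genes (58 probe sets) encode collagens and 15 genes (23 probe sets) encode enzymes and helpers. No probe set carried the symbol Loxl4, P3h2, Leprel1 or Pcolce2 alone, and these 4 were not analysed here.

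Collagens are triple helices of 3 chains, which may be alike or come from different genes. In the endoplasmic reticulum, chains are hydroxylated on prolines and lysines and glycosylated, and the chaperone Hsp47 (Serpinh1) holds the helix together until it leaves. Outside the cell, the end propeptides of fibrillar collagens are cut off, fibrils form, and lysyl oxidases cross-link them. In the gut wall most fibrillar collagen is made by stromal cells beneath the epithelium, and sheet-forming type IV collagen lies in the basement membrane under the epithelial cells.

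The cells were IEC-6, an undifferentiated, non-tumorigenic line from rat intestinal crypts, grown in DMEM with serum. ShSuz12 cells carried a lentiviral short hairpin RNA against Suz12, a core subunit of the Polycomb repressive complex that methylates histone H3 at lysine 27, and ShControl cells carried a scrambled hairpin. Both were puromycin-selected populations, 1 line per group, so that a difference between the hairpins and a difference between the lines cannot be told apart. RNA of 3 independent experiments per group was hybridised to 6 Affymetrix rat arrays, which report transcript levels as log2 RMA values, 1 unit being a 2-fold difference.

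The targeted gene was depleted. Suz12 had log2 values of 5.82, 5.77 and 5.91 in ShSuz12 cells, against 8.45, 8.55 and 8.77 in ShControl cells, a log2 fold change of -2.76 (SE 0.09, limma adjusted p = 2.78e-07). Arrays correlated at 0.997 to 0.998 within groups and at 0.979 to 0.98 between them. As for the labelled cell type, E-cadherin (Cdh1) and keratin 8 (Krt8) were at or above percentile 87.2 of the array in both groups, but Epcam, Krt18, Fabp2 and Vil1 were at percentile 27.6 or lower. The 16 intestinal epithelium markers summed to 4790 to 4960 linear units in ShSuz12 cells and to 7160 to 8010 in ShControl cells. That sum is dominated by Cdh1, which fell by 0.76, whereas over the 16 the median log2 fold change was 0. At the adjusted p of limma 3 were higher and 2 lower, against 17.1% and 23.3% of all genes. Cdx2 and Krt19 were called higher (at least 2-fold with a limma adjusted p under 0.05), 2 of 16 against 3.82% of all genes. Of 14 fibroblast markers other than collagens, 5 were called higher in ShSuz12 cells (Lum, Fbln1, Mfap5, Pdgfrb and Dcn) and 0 lower, against 3.82% and 0.422% of all genes. Without the 2-fold limit 6 were higher and 1 lower, against the same 17.1% and 23.3%, and the median log2 fold change was 0.11. The 14 together summed to 29500 to 30200 in ShSuz12 cells and 25600 to 26100 in ShControl cells. That sum is weighted to the brightest markers, of which S100a4 rose by 0.99, short of 2-fold, Fbn1 fell by 0.41 and Vim had a log2 fold change of -0.06. Of the markers that define fibroblasts, Vim, S100a4, Fbn1 and Dcn were at or above percentile 92.2 in both groups, while Pdgfra, Thy1, Fap, Tcf21, Prrx1 and Meox1 were at or below percentile 34.0 in both. At 2-fold and a limma adjusted p under 0.05, 0 of 7 measured smooth muscle, endothelial and leukocyte markers each were called. Shares of 3.82% and 0.422% of all genes do not set that count apart. None changed 2-fold, so unadjusted p could call none either. Without the 2-fold limit, 2 smooth muscle markers were higher and 2 lower, 1 endothelial marker was higher, and 3 leukocyte markers were lower. These counts stand against 17.1% and 23.3% of all genes. The smooth muscle markers summed to 3540 to 3660 in ShSuz12 cells and to 4300 to 4490 in ShControl cells, the endothelial ones to 206 to 226 and to 192 to 199, and the leukocyte ones to 1100 to 1160 and to 1300 to 1340. These marker shifts moved with the collagen changes below, and their part in them was not tested. In such bulk samples, fewer cells of a type and less RNA per cell cannot be told apart.

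Suz12-depleted cells had more transcript of a small set of collagens. A probe set was called when it differed at least 2-fold with a limma adjusted p under 0.05 over all probe sets. By this rule 8 of the 81 probe sets were higher and 1 was lower, against 3.1% higher and 0.396% lower among all probe sets. Taking the brightest probe set of each gene, 7 of 56 genes were higher (Col1a2, Col3a1, Col6a1, Col6a2, Col11a1, Col12a1 and Col25a1) and 0 were lower, against 3.82% and 0.422% of all genes. All 8 higher probe sets and the 1 lower one belonged to collagens. Of 23 enzyme and helper probe sets 0 were called. With shares of 3.1% and 0.396% over all probe sets, that count does not set the enzymes apart. Without the fold limit 6 of the 23 were higher and 3 lower, against 14.8% and 19.5% of all probe sets. Unadjusted p from the study's own test, with the same 2-fold limit, gave the same counts of called probe sets and genes.

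Without the fold limit, 31 of the 81 probe sets were higher, 9 were lower and 41 did not pass, against 14.8% higher and 19.5% lower among all probe sets. After each array's median was subtracted, the count was 27 higher and 17 lower, against 11.5% and 37.9% of all probe sets after the same subtraction. The groups did not overlap, with every ShSuz12 array higher, at 37 of the 81 probe sets and, with every ShSuz12 array lower, at 11 of them, against 19.4% and 28.1% of all probe sets. The median log2 fold change of the 81 was 0.09, with a range of -1.03 to 2.34, and that of all probe sets was -0.05. Of the 56 genes, 16 were below percentile 40 of the array in both groups, and of these 1, Col25a1, was called.

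**Figure D1:**
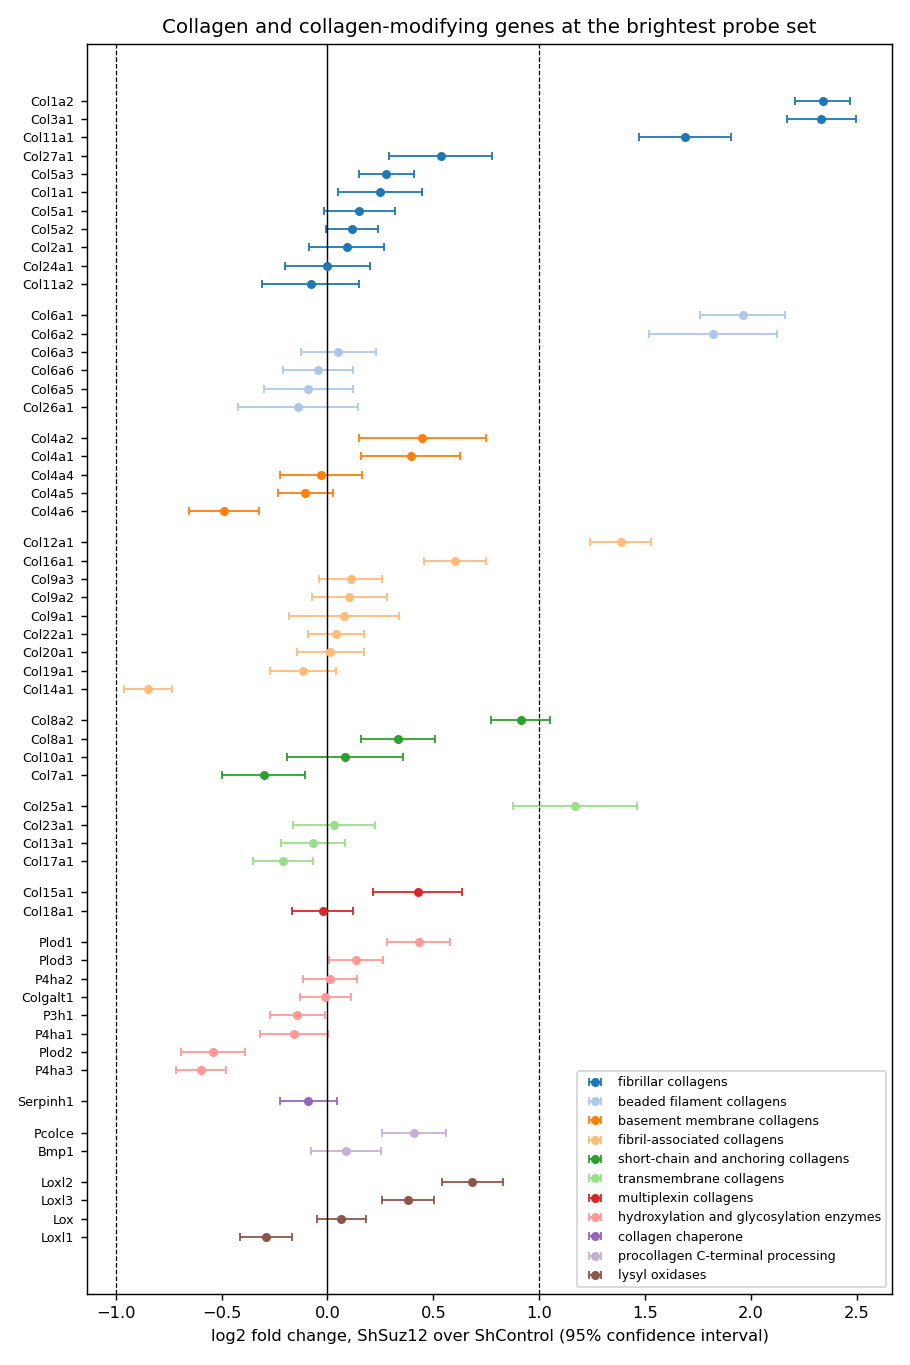
The log2 fold change of ShSuz12 over ShControl cells (horizontal axis) is shown for 56 collagen and collagen-modifying genes at the brightest probe set, with 95% confidence intervals from limma (n = 3 per group), grouped by the class of the protein. Col1a2 and Col3a1 lie farthest to the right, 7 genes lie past the dashed 2-fold line on the right, and no gene lies past the one on the left.

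The fibrillar collagens, which form the banded fibrils of connective tissue, held 4 of the 8 higher probe sets. Of 11 measured genes, 3 were called higher and 0 lower, against 3.82% and 0.422% of all genes. Their median log2 fold change was 0.25, and that of all genes was -0.05. Col1a2 encodes the alpha 2 chain of type I collagen, the main fibril protein of bone, skin and tendon. Its brighter probe set, 1387854_at, had log2 values of 8.75, 8.72 and 8.79 in ShSuz12 cells, against 6.46, 6.34 and 6.45 in ShControl cells, 5.05-fold higher (log2 fold change 2.34, SE 0.06, adjusted p = 6.32e-08 from limma). At its other probe set, 1370155_at, ShSuz12 cells had 8.67, 8.62 and 8.79 and ShControl cells 6.47, 6.50 and 6.45, 4.66-fold higher (adjusted p = 1.09e-07 from limma). Every ShSuz12 array was thus above every ShControl array at both probe sets, as at 19.4% of all probe sets. SDs within groups were at most 0.09.

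Col3a1, whose chains form type III collagen, the partner of type I in distensible tissues such as the gut wall, rose by about as much. It had log2 values of 13.45, 13.41 and 13.45 in ShSuz12 cells and of 11.06, 11.25 and 11.01 in ShControl cells, 5.03-fold higher (log2 fold change 2.33, SE 0.07, limma adjusted p = 2.08e-07). Its probe set was at percentile 99.7 of the array in ShSuz12 cells and already at percentile 96.7 in ShControl cells.

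Col1a1, which encodes the alpha 1 chain that assembles with the Col1a2 chain, did not pass the test. At the brightest probe set its log2 values were 13.40, 13.43 and 13.51 in ShSuz12 cells, against 13.23, 13.34 and 13.02 in ShControl cells, a log2 fold change of 0.25 with a 95% interval of 0.05 to 0.45 (limma adjusted p = 0.055). The groups did not overlap there, nor at the dimmer probe set, whose log2 fold change was 0.21 (limma adjusted p = 0.0742). Over all probe sets, 19.4% had groups apart in this direction. Both Col1a1 probe sets lay at or above percentile 99.3 in both groups, near the top of the array's range. Col1a1 passed without ShControl replicate 2, at 0.32 and 0.28 (limma adjusted p = 0.0202 and 0.0233).

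**Figure D2:**
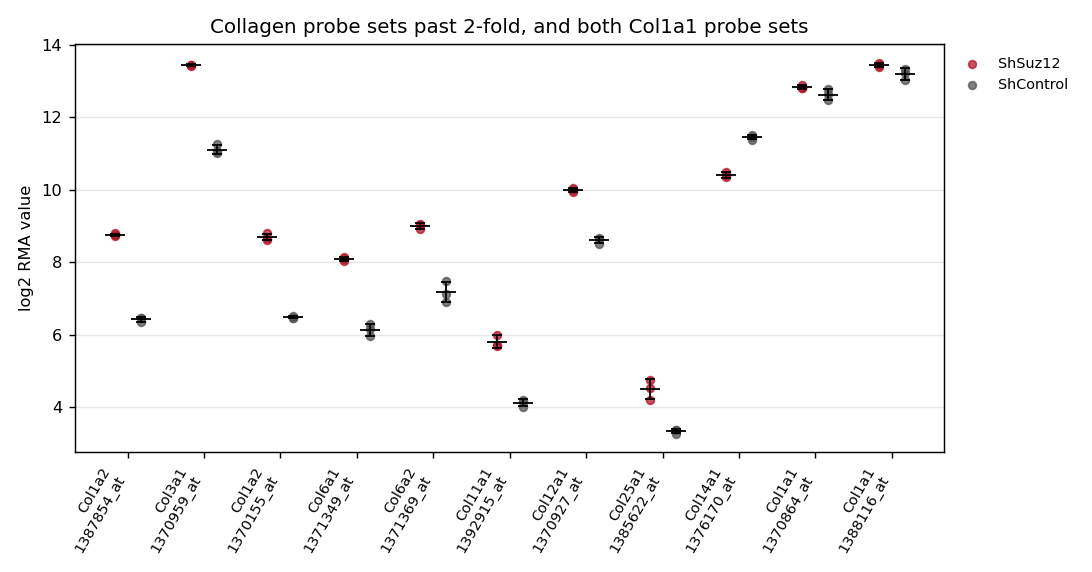
Log2 RMA values (vertical axis) are plotted for each array at the 9 collagen probe sets past 2-fold and at both Col1a1 probe sets, with ShSuz12 in red at the left of each pair, ShControl in grey at the right, and bars for the mean and SD (n = 3). Red lies above grey at the 8 higher probe sets and at Col1a1, where the gap is small, and below grey at Col14a1.

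Col11a1 encodes a chain of type XI collagen, a minor fibrillar collagen that sets fibril diameter in cartilage. At its brightest probe set, 1392915_at, ShSuz12 cells had log2 values of 6.00, 5.72 and 5.68 and ShControl cells 4.19, 4.01 and 4.14 (log2 fold change 1.69, SE 0.09, limma adjusted p = 6.00e-06). That is a step to percentile 44.4 in ShSuz12 cells, against percentile 18.3 in ShControl cells, where the array measures differences less well. Its other probe sets were dimmer: 1384211_at rose by 0.97 on the log2 scale (limma adjusted p = 0.00373), and 1384931_at, below percentile 1 in both groups, had a log2 fold change of -0.02 (limma adjusted p = 0.848). Its partner chain Col11a2 had a log2 fold change of -0.08 (limma adjusted p = 0.587).

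Among the other fibrillar collagens, the 3 type V genes, whose chains start and limit type I fibrils, moved little. Col5a3 rose by 0.28 on the log2 scale (limma adjusted p = 0.00583). Col5a1 and Col5a2 did not pass at the brightest probe set, with log2 fold changes of 0.15 and 0.11, and passed at the other, with 0.47 and 0.29. Without 1 array in turn, Col5a1 passed at the brightest probe set without ShControl replicate 2, at 0.22 (limma adjusted p = 0.0262), and missed at the other without ShSuz12 replicate 2 or 3 or ShControl replicate 3, at 0.39 to 0.43 (limma adjusted p = 0.0516 to 0.053). Col5a2 is the neighbour of Col3a1 on chromosome 9. Col27a1 rose by 0.53 (limma adjusted p = 0.00546), and Col2a1, the main cartilage collagen, and Col24a1 did not pass, at 0.00 to 0.09.

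Type VI collagen forms beaded filaments near cell surfaces and basement membranes, from chains of Col6a1, Col6a2 and a larger chain such as that of Col6a3. Col6a1 had log2 values of 8.04, 8.08 and 8.14 in ShSuz12 cells, against 5.95, 6.29 and 6.14 in ShControl cells, 3.89-fold higher (log2 fold change 1.96, SE 0.09, limma adjusted p = 1.71e-06). Col6a2, at 1371369_at, had 8.91, 9.02 and 9.05 in ShSuz12 cells, against 7.13, 7.48 and 6.91 in ShControl cells, 3.53-fold higher (log2 fold change 1.82, SE 0.13, limma adjusted p = 2.48e-05). These 2 genes lie next to each other on chromosome 20, and their groups were well apart, with the widest spread in the ShControl values of Col6a2 (SD 0.29). A dimmer Col6a2 probe set, 1376162_at, rose only by 0.27 (limma adjusted p = 0.011), and missed the threshold after median subtraction, at 0.17 (limma adjusted p = 0.051), and after a further quantile normalization, at 0.18 (limma adjusted p = 0.0613).

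Col6a3 did not pass at its brightest probe set, which lay at percentile 35.2 in ShSuz12 cells and 35.4 in ShControl cells. The log2 fold change there was 0.05, with a 95% interval of -0.12 to 0.23 (limma adjusted p = 0.647). Its dimmer probe set rose by 0.32 (limma adjusted p = 0.0226). That call was missed without ShControl replicate 1 or 3, at 0.30 to 0.33 (limma adjusted p = 0.0553 to 0.0704). Col6a5 and Col6a6, alternatives to the Col6a3 chain, and Col26a1 had log2 fold changes between -0.14 and -0.04, none of which passed the test.

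Promoter sequences from RefSeq (rat build GRCr8), reaching 250 bases before and 50 bases after each annotated gene start, were matched by symbol for 44 of the 56 genes. Of the 7 genes called higher at the brightest probe set, Col1a2, Col6a1 and Col11a1 have an entry. They are printed 5′ to 3′ on the gene strand to show what the called genes share and do not share, with CCAAT boxes (CCAAT or its reverse complement ATTGG, the box bound by NF-Y), GC boxes (GGGCGG or CCGCCC, bound by Sp1-type factors) and TATA boxes (TATAAA) in capitals. Their windows are chr4:33518307-33518606 for Col1a2, chr20:11905440-11905739 for Col6a1 and chr2:204508886-204509185 for Col11a1, all on the plus strand.
Col1a2: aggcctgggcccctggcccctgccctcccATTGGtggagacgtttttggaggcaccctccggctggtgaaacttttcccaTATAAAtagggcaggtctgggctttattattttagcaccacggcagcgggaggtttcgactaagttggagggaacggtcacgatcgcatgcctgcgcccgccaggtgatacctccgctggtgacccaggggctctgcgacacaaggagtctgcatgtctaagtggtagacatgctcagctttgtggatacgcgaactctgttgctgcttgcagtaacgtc
Col6a1: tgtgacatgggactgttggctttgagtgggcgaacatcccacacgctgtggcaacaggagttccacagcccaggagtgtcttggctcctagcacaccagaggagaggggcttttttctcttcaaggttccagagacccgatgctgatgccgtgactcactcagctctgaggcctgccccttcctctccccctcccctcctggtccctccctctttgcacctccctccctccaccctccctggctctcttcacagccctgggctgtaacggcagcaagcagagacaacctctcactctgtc
Col11a1: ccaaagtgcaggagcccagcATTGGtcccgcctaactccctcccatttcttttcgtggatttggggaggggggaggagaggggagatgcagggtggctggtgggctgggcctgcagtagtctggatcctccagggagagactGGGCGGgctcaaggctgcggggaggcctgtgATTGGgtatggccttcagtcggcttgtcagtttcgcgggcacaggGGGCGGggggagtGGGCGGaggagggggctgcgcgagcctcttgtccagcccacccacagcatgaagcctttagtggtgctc

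The 3 windows differ in these letters. Col1a2 holds an ATTGG at position -221 and a TATAAA at position -170, counted from the annotated start, and no GC box. From that start on, the printed Col1a2 bases begin with atg, the letters of a start codon. The annotated start of Col1a2 may thus be where its coding sequence begins and not where transcription begins, which was not tested. Its positions are therefore not distances from a known transcription start, and its window may not line up with the other windows. Col11a1 holds ATTGG and GGGCGG but no TATAAA, and Col6a1 holds none of the 3 motifs. They hold 15 CpG dinucleotides in Col1a2, 5 in Col6a1 and 11 in Col11a1, where the median of all 27457 rat promoter windows is 7. Across all windows, 37.7% hold a CCAAT box on either strand, 34.9% a GC box on either strand and 9.08% a TATAAA on the gene strand. Among the 44 matched genes the shares were 22.7%, 63.6% and 9.09%, with a median of 14.5 CpG. The enzymes and helpers had more GC boxes (83.3% of 12 windows) and CpG (median 25) than the collagens (56.2% of 32 windows, median 13). These are counts of letters in a fixed window and give no account of binding.

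Fibril-associated collagens sit on the surface of fibrils and link them to their surroundings, and the closely related types XII and XIV moved in opposite directions. Col12a1, at its brightest probe set 1370927_at, had log2 values of 10.0, 9.94 and 10.04 in ShSuz12 cells, against 8.67, 8.64 and 8.51 in ShControl cells, 2.61-fold higher (log2 fold change 1.38, SE 0.06, limma adjusted p = 1.83e-06). Its other probe sets rose too, by 0.97 at 1398321_a_at and by 0.74 at 1395580_at. All 3 had groups that did not overlap, as did 19.4% of all probe sets in this direction.

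Col14a1 was the only gene of the 56 with a probe set called lower. That probe set, 1376170_at, had log2 values of 10.34, 10.49 and 10.40 in ShSuz12 cells, against 11.46, 11.50 and 11.38 in ShControl cells, a log2 fold change of -1.03 (SE 0.06, limma adjusted p = 9.42e-06), just past 2-fold. Without ShSuz12 replicate 1 it was -0.997, just short of 2-fold, and after a further quantile normalization it was -0.99. The brighter probe set, 1376105_at, had 12.52, 12.54 and 12.48 in ShSuz12 cells and 13.38, 13.37 and 13.35 in ShControl cells, a log2 fold change of -0.85 (SE 0.05, limma adjusted p = 7.69e-06), short of 2-fold. Of the 9 fibril-associated genes, Col16a1 also rose, by 0.60 (limma adjusted p = 2.05e-04). The other 6 (Col9a1, Col9a2, Col9a3, Col19a1, Col20a1 and Col22a1) ranged from -0.11 to 0.11, and none passed.

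The sheet-forming type IV collagens of basement membranes were not called in either direction. Col4a1 and Col4a2, whose products form the network common to all basement membranes, rose by 0.39 and 0.45 on the log2 scale (limma adjusted p = 0.0186 and 0.0301). Col4a2 missed the threshold without any 1 array other than ShControl replicate 2, at 0.34 to 0.49 (limma adjusted p = 0.0504 to 0.0962), and Col4a1 without ShSuz12 replicate 3, at 0.34 (limma adjusted p = 0.0682). The second Col4a1 probe set rose by 0.38 (limma adjusted p = 0.0104). These genes are neighbours whose annotated starts are 77 bases apart on opposite strands, so that they share a promoter region. Col4a6, whose chain pairs with that of Col4a5 in some basement membranes, had log2 values of 8.38, 8.39 and 8.34 in ShSuz12 cells, against 8.72, 8.89 and 8.97 in ShControl cells, and fell by 0.49 at each of its probe sets (limma adjusted p = 0.00125 and 0.00159). Col4a5 had a log2 fold change of -0.10 with a 95% interval of -0.23 to 0.02 and did not pass, nor did Col4a4. Col4a5 passed as lower after median subtraction, at -0.205 (limma adjusted p = 0.0206), and with an intensity trend and robust eBayes (limma adjusted p = 0.0325).

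The remaining collagens gave 1 call. Col25a1, a transmembrane collagen known from neurons, had log2 values of 4.53, 4.19 and 4.75 in ShSuz12 cells, against 3.26, 3.36 and 3.35 in ShControl cells, and was called higher (limma adjusted p = 2.49e-04). These values lie at percentile 25.2 of the array in ShSuz12 cells and at percentile 2.92 in ShControl cells, too near the bottom of the array's range for a fold to be given. Col17a1, the transmembrane collagen of hemidesmosomes, fell by 0.21 (limma adjusted p = 0.0321), a call missed without ShSuz12 replicate 1 or 2 or ShControl replicate 2 or 3, at -0.22 to -0.17 (limma adjusted p = 0.0613 to 0.107). Col13a1 and Col23a1 did not pass. Among short-chain and anchoring collagens, Col8a2 rose by 0.91 (limma adjusted p = 1.55e-05), with log2 values of 8.19, 8.08 and 8.23 in ShSuz12 cells and 7.22, 7.30 and 7.25 in ShControl cells. Its partner Col8a1 rose by 0.33 (limma adjusted p = 0.0104), and Col7a1, which makes the anchoring fibrils beneath stratified epithelia, fell by 0.30 (limma adjusted p = 0.0263). The Col7a1 call was missed without ShSuz12 replicate 1 or 3 or ShControl replicate 1 or 2, at -0.31 to -0.25 (limma adjusted p = 0.0658 to 0.0873). Col15a1 rose by 0.43 (limma adjusted p = 0.00771), while its relative Col18a1, the source of endostatin, passed at neither of its probe sets.

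For 20 of the 56 genes more than 1 probe set was measured, and they did not always tell the same story. The Col1a2, Col4a1, Col4a6, Col6a2, Col12a1, Col14a1, Col15a1 and Loxl2 probe sets passed in a shared direction. For Col5a1, Col5a2, Col6a3 and Bmp1 only the dimmer probe set passed. The Col6a2 and Col11a1 probe sets differed widely in size within a gene, the dimmest moving least.

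**Figure D3:**
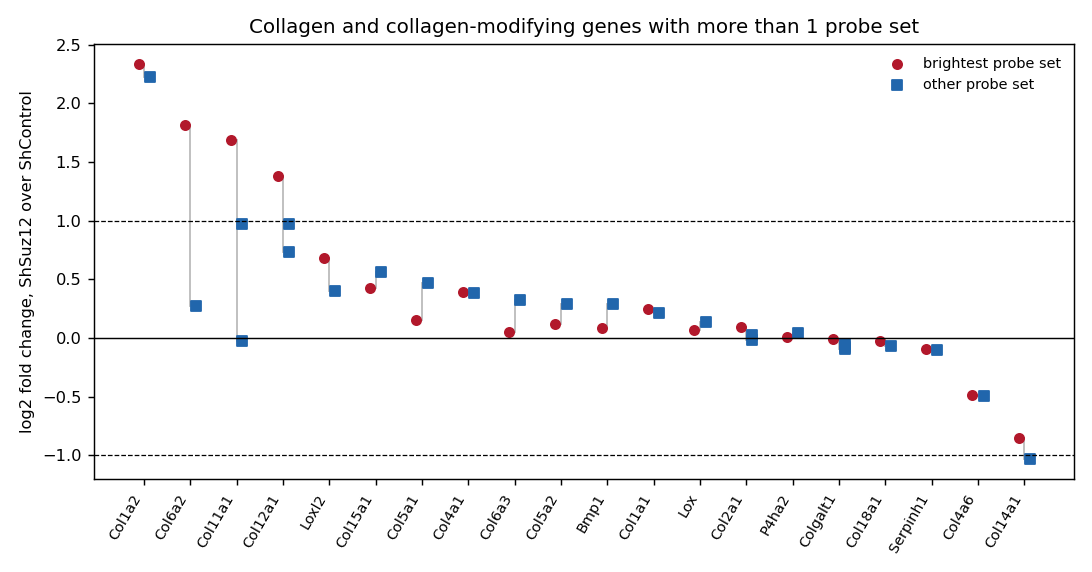
For each of the 20 genes with more than 1 probe set, the log2 fold change of ShSuz12 over ShControl cells (vertical axis) is shown for the brightest probe set (red circle) and the others (blue squares), with dashed lines at 2-fold. The squares of Col6a2 and Col11a1 lie far below their circles, whereas those of Col1a2, Col4a6 and Col14a1 lie close to theirs.

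The modifying enzymes changed less than 2-fold at all 23 probe sets. Of the 8 hydroxylation and glycosylation genes, 1 rose and 2 fell at the brightest probe set, against 17.1% and 23.3% of all genes. Those counts do not set this class apart. P4ha3, a catalytic subunit of the prolyl 4-hydroxylase that stabilises the triple helix, had log2 values of 11.66, 11.71 and 11.75 in ShSuz12 cells, against 12.28, 12.31 and 12.32 in ShControl cells, and fell by 0.60 (SE 0.05, limma adjusted p = 7.05e-05). Plod2, the lysyl hydroxylase that acts on the telopeptides and so steers the kind of cross-link, had 10.80, 10.77 and 10.92 in ShSuz12 cells, against 11.32, 11.45 and 11.33 in ShControl cells, and fell by 0.54 (SE 0.07, limma adjusted p = 4.51e-04). Plod1, which hydroxylates lysines in the helix, had 9.27, 9.35 and 9.19 in ShSuz12 cells, against 8.91, 8.84 and 8.77 in ShControl cells, and rose by 0.43 (SE 0.06, limma adjusted p = 0.00136). The groups did not overlap for any of the 3, as for 55.7% of all genes. Since the 3 were named for passing the test, this adds little to it. P4ha1, P4ha2, Plod3, the galactosyltransferase Colgalt1 and the prolyl 3-hydroxylase P3h1 did not pass, with log2 fold changes between -0.16 and 0.13. Serpinh1, the collagen chaperone, was at percentile 99.6 in both groups and had a log2 fold change of -0.09 with a 95% interval of -0.22 to 0.04 (limma adjusted p = 0.273). It passed as lower after median subtraction, at -0.191 (limma adjusted p = 0.0301), and with an intensity trend and robust eBayes (limma adjusted p = 0.0488).

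Of the 2 genes of C-terminal propeptide removal 1 rose, and of the 4 lysyl oxidases 2 rose and 1 fell at the brightest probe set. Among all genes 17.1% were higher and 23.3% lower, and classes this small cannot be set against those shares. Pcolce, which enhances removal of the C-terminal propeptide, had log2 values of 12.21, 12.20 and 12.24 in ShSuz12 cells, against 11.80, 11.92 and 11.71 in ShControl cells, and rose by 0.41 (SE 0.07, limma adjusted p = 0.0019). Bmp1, the proteinase that removes that propeptide, had log2 fold changes of 0.09 (limma adjusted p = 0.384) at its brighter and 0.29 (limma adjusted p = 0.0381) at its dimmer probe set, where the threshold was missed without any 1 array other than ShControl replicate 2, at 0.19 to 0.32 (limma adjusted p = 0.0595 to 0.108). Loxl2, a lysyl oxidase that also acts on type IV collagen, had 8.88, 8.87 and 8.91 in ShSuz12 cells, against 8.10, 8.29 and 8.21 in ShControl cells, and rose by 0.68 (SE 0.06, limma adjusted p = 9.45e-05), the largest change of any enzyme or helper. Loxl3 had 9.59, 9.56 and 9.63 in ShSuz12 cells, against 9.25, 9.22 and 9.16 in ShControl cells, and rose by 0.38 (SE 0.05, limma adjusted p = 9.15e-04). Loxl1, better known for cross-linking elastin, went the other way, with 11.30, 11.33 and 11.32 in ShSuz12 cells and 11.66, 11.61 and 11.56 in ShControl cells, and fell by 0.29 (SE 0.05, limma adjusted p = 0.00357). Lox, the founding member of this family, was at percentile 99.7 in both groups and had a log2 fold change of 0.06 with a 95% interval of -0.05 to 0.18 (limma adjusted p = 0.365). It passed with an intensity trend and robust eBayes (limma adjusted p = 0.0403), but was -0.036 after median subtraction (limma adjusted p = 0.577).

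**Figure D4:**
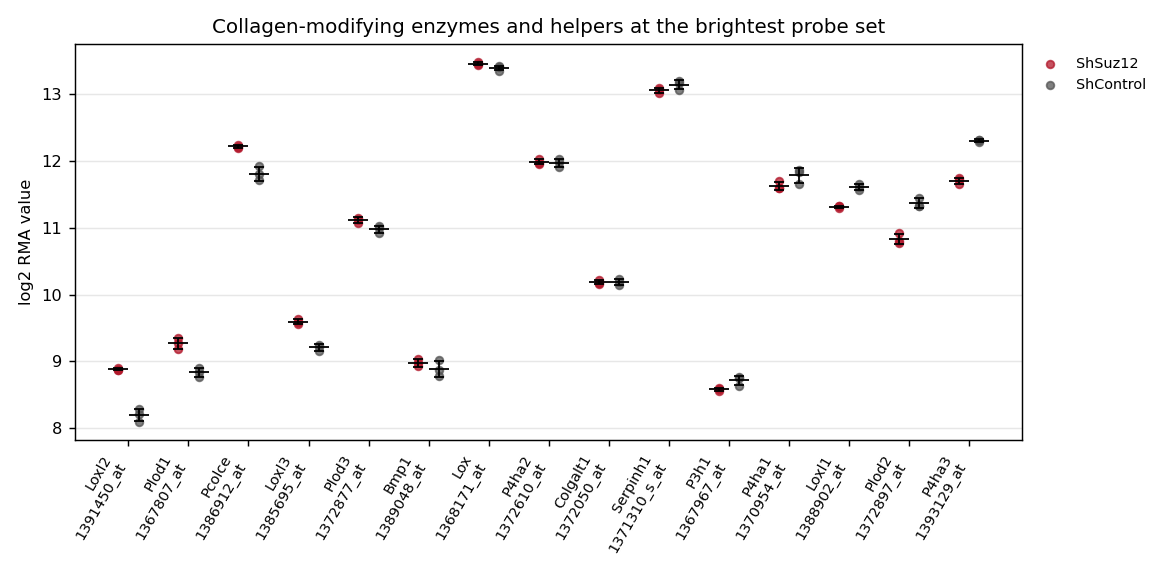
Log2 RMA values (vertical axis) of each array are shown at the brightest probe set of the 15 enzymes and helpers, with ShSuz12 in red at the left of each pair, ShControl in grey at the right, and bars for the mean and SD (n = 3), ordered by fold change. The groups lie apart at Loxl2 on the left and at P4ha3 on the right, by less than 1 log2 unit, and overlap at Colgalt1 and P4ha2.

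Genes that act beside collagens were read from 6 lists of the collagen pathway, of which 82 of 104 genes were measured, 10 called higher and 0 lower, against the 3.82% and 0.422% of all genes given above. Fibril assembly partners held 8 of the 10, of 19 measured, with a median log2 fold change of 0.24. Without the fold limit 10 of them were higher and 3 lower, against 17.1% higher and 23.3% lower among all genes. The 3 lower were Comp, Ogn and Fbln2, which fell by 0.78, 0.57 and 0.33 (limma adjusted p = 4.58e-05, 1.29e-04 and 0.00202). Fmod, a small proteoglycan that binds collagen fibrils, had log2 values of 12.23, 12.24 and 12.26 in ShSuz12 cells, against 8.61, 8.71 and 8.62 in ShControl cells (log2 fold change 3.59, limma adjusted p = 8.61e-09). Tgfbi, which links collagens to integrins, had 9.23, 9.26 and 9.27 in ShSuz12 cells, against 6.39, 6.54 and 6.35 in ShControl cells (log2 fold change 2.82, limma adjusted p = 4.23e-08). Tnc and Postn, matrix proteins of wound and growth zones, had log2 fold changes of 3.57 and 3.48. Every ShSuz12 array was far above every ShControl array for these 4 genes, whose changes exceeded that of Col1a2. The fibril assembly list shares Lum and Dcn with the fibroblast markers above.

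Of 14 collagen degradation genes, 2 were called higher, 7 were higher and 1 was lower without the fold limit, against the 17.1% and 23.3% of all genes, and the median was 0.16. Mmp2, a gelatinase that cuts denatured collagen and type IV collagen, had 7.66, 7.63 and 7.80 in ShSuz12 cells, against 5.14, 4.94 and 5.33 in ShControl cells (log2 fold change 2.56, limma adjusted p = 7.75e-07). Mmp16, a membrane-bound metalloproteinase, had 6.02, 6.19 and 5.78 in ShSuz12 cells, against 4.04, 3.86 and 3.63 in ShControl cells (log2 fold change 2.15, limma adjusted p = 9.17e-06). Both were well apart between groups. Mmp16 lay at percentile 46.7 in ShSuz12 cells but at percentile 12.6 in ShControl cells, where the array measures differences less well. Of the metalloproteinase inhibitors, Timp1 and Reck rose as well, by 0.95 (limma adjusted p = 3.60e-06) and 0.83 (limma adjusted p = 1.06e-05), short of 2-fold. Timp3 fell by 0.30 (limma adjusted p = 0.00625), and Timp2 had a log2 fold change of -0.02 (limma adjusted p = 0.76).

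No gene was called at 2-fold in the other 4 lists at an adjusted p under 0.05 from limma, and their counts without the fold limit stand against the same 17.1% and 23.3% of all genes. Of 18 other folding and secretion genes, 5 were higher and 1 lower without the fold limit, with a median of 0.03. Of 9 collagen receptors, 1 was higher and 3 were lower, with a median of 0.04, and Cd44, a hyaluronan receptor that also binds collagen, fell by 0.72 (limma adjusted p = 3.82e-05). Of 19 regulators of collagen transcription, 6 were higher and 4 lower, with a median of 0.06. Tgfb1, the cytokine best known for inducing collagen synthesis, rose by 0.78 (limma adjusted p = 5.42e-05) and its receptor Tgfbr1 by 0.60 (limma adjusted p = 1.47e-04), whereas Scx, a tendon transcription factor that activates Col1a1 and Col1a2, fell by 0.74 (limma adjusted p = 3.12e-05). Another ligand, Tgfb2, fell by 0.38 (limma adjusted p = 0.0016), as did the signal transducers Smad2, by 0.42 (limma adjusted p = 6.38e-04), and Smad3, by 0.30 (limma adjusted p = 0.0273). The Smad3 call was missed without ShSuz12 replicate 1 or 2 or ShControl replicate 1 or 2, at -0.31 to -0.26 (limma adjusted p = 0.0636 to 0.0924). The other higher regulators were Egr2, Cebpb, Zeb1 and Twist2, by 0.79, 0.62, 0.57 and 0.38 (limma adjusted p = 2.44e-04, 0.00127, 0.00137 and 0.0187). Twist2 missed without ShSuz12 replicate 1 or 3 or ShControl replicate 2 (limma adjusted p = 0.0518 to 0.0586). None of the 3 measured other procollagen proteinases passed.

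**Figure D5:**
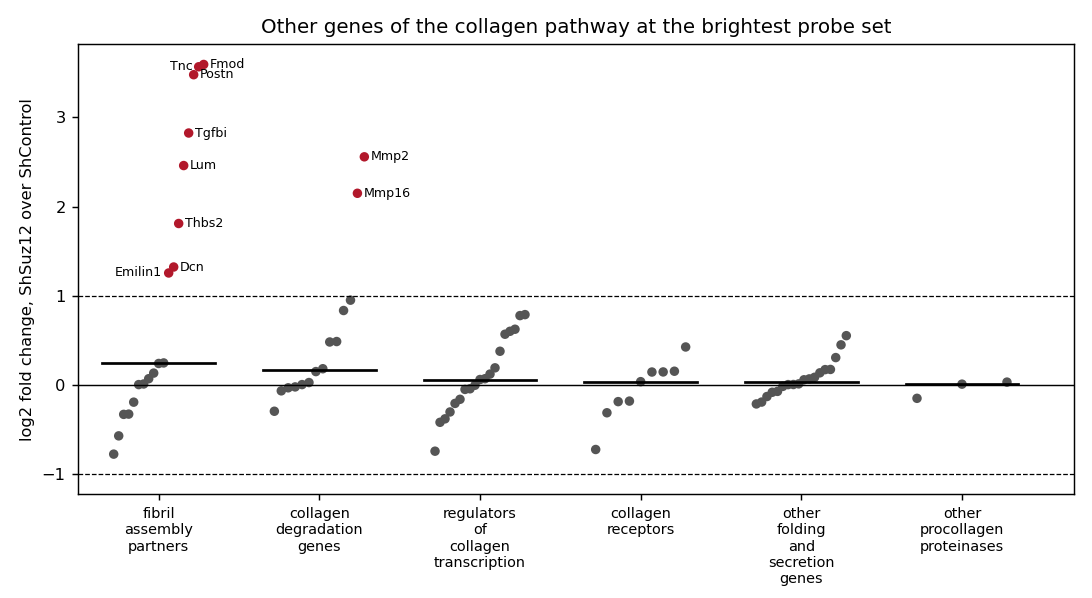
Each point is the log2 fold change of ShSuz12 over ShControl cells (vertical axis) of 1 gene of the pathway lists at its brightest probe set, with red for genes called at 2-fold, a short bar for the list's median and dashed lines at 2-fold. The 8 called fibril assembly partners and the 2 called degradation genes lie above the upper line, and all points of the other 4 lists lie between the lines.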

How the data were processed

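Transcript levels in ShSuz12 and ShControl IEC-6 cells were measured on 6 Affymetrix rat arrays, 3 for each group, with RNA of 3 independent experiments. The values deposited by the authors were log2 RMA values, 1 per probe set and array, made in FlexArray 1.6.1. As a method, RMA subtracts background, brings the distributions of the arrays together and summarises the probes of a set. It compresses differences of very dim and very bright probe sets. The version of RMA was not given in the sources used. The deposited arrays kept an offset between groups, with medians of 6.26 to 6.27 in ShSuz12 cells and 6.15 to 6.17 in ShControl cells. Small log2 fold changes should be read with that offset in mind.

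A total of 57 control probe sets was left out. The other 31042 were tested two-sided with limma 3.58.1 (lmFit, then eBayes, R 4.3.3), and the Benjamini-Hochberg adjustment ran across every one of them. Calls required 2-fold and an adjusted p under 0.05. The code was tested on simulated data first. With 3 arrays per group precision is limited, and p reflects only the variation among experiments with 1 line per hairpin. Gene symbols were those of the platform annotation (20826 probe sets with 1, 436 with several, 9780 unlisted), of which the GRCr8 gene table altered 0. Each gene was represented by its probe set of highest mean.

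Per-array values were given for each gene with a called probe set, for each enzyme with an adjusted p under 0.05 and for some of up to 4 called genes named per pathway list. Col1a1, Col4a6 and Col8a2 were added after their values were seen, as were pathway genes named without a call. The genes, lists and naming rule were chosen with earlier results of these data and the study's tables known. As alternatives, the study's t-test was run with and without adjustment, probe sets under percentile 40 or 60 in more than 1 array of both groups were dropped, arrays were centred on the median or quantile-normalized again, eBayes was run with a trend and robustly, replicate number was used as a block, thresholds were moved, probe sets of a gene were averaged and each array was omitted in turn. matplotlib 3.10.9 drew the figures.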

Additional observations from a re-analysis of the deposited data

How the results depend on the processing

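The 7 genes called higher numbered 5 to 7 under all alternatives that kept the 2-fold limit. Filters on dim probe sets removed Col25a1 at percentile 40 and Col11a1 also at percentile 60, where the higher pathway genes numbered 7, against 10. Since a probe set could pass these filters through the group where it is high, the calls left by them are no support. Where all probe sets of a gene were averaged, 6 genes were higher. Without each array in turn, the higher probe sets numbered 8 to 9 and the lower ones 0 to 1, the 0 being without ShSuz12 replicate 1, where Col14a1 fell just short of 2-fold. A further quantile normalization also gave 0 lower. Under a 1.5-fold limit, by construction a wider call, there were 14 higher and 3 lower probe sets, 10 higher and 2 lower genes, and 16 higher and 3 lower other pathway genes. Median subtraction, which moved the median of all probe sets to -0.15, against -0.05 in the deposited values, gave 17 lower probe sets without a fold limit, against 9. At an adjusted p under 0.01, 23 were higher and 7 lower. The study's t-test with Benjamini-Hochberg adjustment gave 21 higher and 7 lower without a fold limit, against 31 and 9 from limma. Those that missed there included Col27a1, Col8a1, Col15a1, Col7a1 and both Col4a1 probe sets (t-test adjusted p = 0.0558 to 0.105).

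Single probe sets were followed under each alternative for 93 of the collagen, enzyme and pathway probe sets, those that passed and those given with a p of their own. Of 1273 values, 1143 kept direction and side of the adjusted p threshold, 106 no longer passed, 16 newly passed and 8 changed sign. All 9 collagen probe sets called at 2-fold passed the adjusted p in every alternative that measured them, as did 27 of the 40 that passed without the fold limit and 30 of 41 pathway genes. None of the 8 sign changes was at a probe set that passed. After median subtraction they were at Col6a3 (-0.049), Lox (-0.036) and Bmp1 (-0.012), and after a further quantile normalization at Col6a3 (-0.011). Without each array in turn, Col6a3 ran between -0.026 and 0.109, Col11a2 between -0.15 and 0.019 and the 1384931_at probe set of Col11a1 between -0.095 and 0.045. The cause was not tested. With the replicate number as a block, 8 probe sets were higher and 1 lower at 2-fold, and 31 and 8 without the fold limit. Col17a1 was the 1 no longer lower (limma adjusted p = 0.0543). Of the pathway genes, Smad3, Itgb1, Mmp13, Fkbp9, Ppib and P3h3 missed as well (limma adjusted p = 0.0521 to 0.0863). Same-numbered arrays did not pair (correlations of 0.02, -0.04 and -0.06, with 0 of 3 pairs best correlated with their own number). Probe sets near the lower end of the array's range, such as those of Col25a1 and Col6a3, limit what can be seen there, and no depth is defined for arrays.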
